A study of Mus musculus with 18 samples.

Results

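The 34 genes described here make, sense, move or export cholesterol. They were taken by name from a list covering the SREBP machinery (5 genes), the enzymes from acetoacetyl-CoA to isoprenoids (8 genes), the squalene and sterol ring enzymes (12 genes), sterol transport and esterification (4 genes), and the LXR receptors with their targets (5 genes). All 34 were found among the 55414 genes of the count table, and none was left out for low counts, since all 34 had 10 or more counts over the libraries, as 21772 genes of the table did. The question put to them was how their transcripts differed between myotubes given palmitic acid and those given its carrier, and whether silencing of Erk3 or Mk5 changed their level or their response.

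RNA was profiled in C2C12 myotubes, an established mouse myoblast line that fuses into multinucleated myotubes when serum is lowered. Cells were transfected with a non-targeting siRNA (siNtc), a pool of siRNAs against Erk3 (gene Mapk6, siErk3) or a pool against Mk5 (gene Mapkapk5, siMk5), and were used after 6 days of differentiation. For the last 16 h they were kept without serum, with bovine serum albumin alone (BSA) or with 0.5 mM palmitic acid bound to it (PA). The groups are therefore siNtc BSA, siErk3 BSA, siMk5 BSA, siNtc PA, siErk3 PA and siMk5 PA, with 3 libraries in each and 18 in all. All come from 1 cell line, with no genetic deletion in any group, and no label ties the 3 libraries of a group to cultures of their own, so p-values measure only the spread between these libraries.

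Cells keep their cholesterol constant by a feedback on transcription. SREBP proteins are made as precursors in the membrane of the endoplasmic reticulum, where SCAP escorts them to the Golgi for cleavage and INSIG proteins hold them back while sterols are plentiful. The freed fragment enters the nucleus, binds sterol regulatory elements next to boxes recognised by NF-Y, and turns on the mevalonate and sterol enzymes. LXR receptors respond to oxidised sterols in the opposite situation and turn on exporters and a ligase that removes lipoprotein receptors. Muscle cells use the same pathway for membranes, for prenylated proteins and for ubiquinone and dolichol.

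Promoters are shown for 6 members that stand for the patterns below, namely the feedback protein Insig1, the enzymes Msmo1 and Mvd that rose with PA, Hmgcs1, which holds the only complete match to a sterol regulatory element, and Mvk and Mylip, which fell. Each line gives the 250 bases before the RefSeq transcription start, 5′ to 3′ on the gene's strand, in build GRCm38.p6, with matches to CCAAT on either strand (ATTGG where it lies on the other strand) and to TCACNCCA, the first letters of TCACNCCAC, in capitals. The last C of the complete element in Hmgcs1 is in capitals too.
Insig1, chr5:28071162-28071411, plus strand: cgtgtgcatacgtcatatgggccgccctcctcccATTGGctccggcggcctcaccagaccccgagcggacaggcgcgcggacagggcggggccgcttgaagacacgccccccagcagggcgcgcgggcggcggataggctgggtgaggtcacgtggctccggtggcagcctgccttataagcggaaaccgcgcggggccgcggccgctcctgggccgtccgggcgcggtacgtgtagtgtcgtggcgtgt
Msmo1, chr8:64733579-64733828, minus strand: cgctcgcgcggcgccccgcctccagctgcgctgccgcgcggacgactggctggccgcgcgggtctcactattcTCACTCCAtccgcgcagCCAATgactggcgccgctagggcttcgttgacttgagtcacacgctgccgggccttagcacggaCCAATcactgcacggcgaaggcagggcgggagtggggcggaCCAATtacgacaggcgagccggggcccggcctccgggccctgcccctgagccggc
Mvd, chr8:122443423-122443672, minus strand: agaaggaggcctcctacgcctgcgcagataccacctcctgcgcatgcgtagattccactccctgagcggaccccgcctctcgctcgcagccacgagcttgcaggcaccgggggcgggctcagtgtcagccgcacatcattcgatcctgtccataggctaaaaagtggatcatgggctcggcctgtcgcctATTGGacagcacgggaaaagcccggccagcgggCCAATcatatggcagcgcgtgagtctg
Hmgcs1, chr13:119690101-119690350, plus strand: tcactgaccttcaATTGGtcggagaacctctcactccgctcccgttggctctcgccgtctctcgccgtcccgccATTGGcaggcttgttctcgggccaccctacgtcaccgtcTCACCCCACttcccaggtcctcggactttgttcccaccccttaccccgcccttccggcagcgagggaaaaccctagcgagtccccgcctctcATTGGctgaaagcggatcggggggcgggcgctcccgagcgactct
Mvk, chr5:114444019-114444268, plus strand: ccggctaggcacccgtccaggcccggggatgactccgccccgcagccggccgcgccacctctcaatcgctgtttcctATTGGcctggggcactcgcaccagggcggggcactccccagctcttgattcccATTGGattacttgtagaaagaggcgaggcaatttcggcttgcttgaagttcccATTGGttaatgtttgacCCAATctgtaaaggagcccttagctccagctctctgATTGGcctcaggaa
Mylip, chr13:45389492-45389741, plus strand: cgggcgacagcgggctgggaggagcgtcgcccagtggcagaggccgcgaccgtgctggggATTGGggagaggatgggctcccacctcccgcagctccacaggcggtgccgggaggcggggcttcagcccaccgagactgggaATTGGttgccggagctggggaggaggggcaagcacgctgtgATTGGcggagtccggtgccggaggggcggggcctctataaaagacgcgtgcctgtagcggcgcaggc

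RefSeq windows were at hand for 28 of the 34 members, some with several start sites, 37 windows in all. CCAAT, the box that NF-Y recognises, was found on either strand in the windows of 23 of the 28 members, 82.1% of them, against 37.5% of all 27025 genes with a window. Counted by window, 24 of 37 held it, 64.9%, against 33.8% of all 32851 windows. Among the 28, Abca1, Acat2, Nr1h2, Nr1h3 and Scap lacked it, so it was present both in members that rose with PA, such as Insig1, Msmo1 and Mvd, and in members that fell, Mvk and Mylip. The sterol regulatory element TCACNCCAC, searched on both strands like the others, was found in 1 of the 28 members, Hmgcs1, 137 bases before its start, against 1.22% of all genes. A form shortened to TCACNCCA, chosen after these windows had been searched, was found in 3 members, Hmgcs1, Msmo1 and Srebf2, which is 10.7% of the 28 against 4.20% of all genes. The LXR element, a direct repeat of AGGTCA, was found in 0 of the 28, against 0.0148% of all genes. These are matches of letters in a short window, and sites elsewhere were not searched.

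The members were expressed over a wide range in control myotubes. In siNtc BSA, on the RPKM scale (read pairs per kilobase of exon, scaled to library size), the highest was Hmgcs1, the synthase of the first committed intermediate, at 60.02 ± 2.86 (SD, n = 3), followed by Srebf2, the precursor of the main sterol-regulating factor, at 56.6 ± 3.58, whose level overlaps that of Hmgcs1. Npc2, which carries cholesterol inside lysosomes, stood at 50.2 ± 1.06 and Cyp51, the lanosterol demethylase, at 46.6 ± 1.303. Insig1 stood at 26.7 ± 0.742, Srebf1 at 21.4 ± 1.93 and Npc1 at 3.63 ± 0.185. The lowest 4 were Fdps at 2.42 ± 0.125, Abcg1 at 1.28 ± 0.159, Nr1h3 at 0.833 ± 0.0526 and Abca1 at 0.487 ± 0.0788. LXRβ (Nr1h2), at 16.9 ± 1.07, was thus the main LXR receptor transcript. The level of Fdps is a lower bound, since 26.7% of its exonic bases are shared with another gene on the same strand and read pairs there stayed unassigned, and 12.1% of those of Tm7sf2 are shared with Vps51.

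Library totals ran from 13041979 to 28496727 assigned read pairs. The 10 myotube markers summed to 12422 to 15585 CPM (counts scaled to library size) in BSA and to 12201 to 13587 CPM in PA, while the 3 of 5 macrophage markers that passed the count filter summed to at most 2.15 CPM and 4 of 4 endothelial markers to at most 1.39 CPM. Of 5 adipocyte markers 1 passed, at no more than 0.140 CPM, and of 5 hepatocyte markers 0. Mapk6 stood at 135, 129 and 133 CPM in siNtc BSA and at 56.6, 60.3 and 55.2 CPM in siErk3 BSA, a log2 difference of -1.20 ± 0.059 (SE), and at 215, 236 and 244 CPM in siNtc PA and 131, 119 and 109 CPM in siErk3 PA, a difference of -0.95 ± 0.056. Mapk6 itself rose with PA in siNtc by 0.81 on the log2 scale, so that the siErk3 PA libraries held about as much of it as the siNtc BSA libraries. Mapkapk5, at 2.53, 2.54 and 2.32 CPM in siNtc BSA and 1.18, 2.01 and 1.70 CPM in siMk5 BSA, was lower in every silenced library in both media but did not pass edgeR's test (FDR 0.469 in BSA and 0.469 in PA). The 18S share, meaning the share of assigned read pairs counted on the single gene Rn18s-rs5, was 2.56% to 7.17% in siNtc BSA. In siNtc PA it was 5.32% to 6.43%. It does not measure all rRNA reads of a library.

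Sterol genes differed between PA and BSA under every siRNA. In siNtc, 13 of the 34 members were higher in PA and 3 lower by edgeR's quasi-likelihood test (FDR below 0.05, Benjamini-Hochberg over all genes tested, and a fold change above 1.3), where 15.5% of all genes tested were higher and 15.1% lower. The median log2 fold change of the members was 0.28, with 27 of 34 above 0 (48.4% of all genes), against a median of -0.03 over all genes. Under siErk3, 8 members were higher and 5 lower (15.8% and 16.3% of all genes), with 23 above 0 (49.4% of all genes) and a median of 0.22 against -0.01 over all genes. Under siMk5, 13 were higher and 4 lower (15.1% and 14.6% of all genes), with 27 above 0 (47.8% of all genes) and a median of 0.28 against -0.01. By the FDR alone, without the 1.3-fold minimum, 23 were higher and 4 lower in siNtc (23.9% and 21.2% of all genes), 19 and 8 in siErk3 (24.1% and 23%), and 23 and 5 in siMk5 (23.4% and 20.9%). By either rule the members that rose made up a larger share than among all genes under each siRNA. Those that fell made up a smaller one in siNtc by either rule and in siMk5 by the FDR alone. They were near the share of all genes in siErk3 by either rule and in siMk5 with the 1.3-fold minimum. The 3 comparisons share no library. The same 8 members rose in all 3, namely Insig1, Mvd, Ggps1, Fdft1, Msmo1, Sc5d, Npc1 and Soat1, as 12% of all genes did. The same 3 fell in all 3, namely Mvk, Abcg1 and Mylip, as 10.8% of all genes did. With the 1.3-fold minimum no member was called in opposite directions, 19 were called at least once (40.3% of all genes), and 15 were never called. By the FDR alone Idi1 was, being higher in siNtc and siMk5 and lower in siErk3. In siNtc the PA and BSA libraries did not overlap for 24 members that were higher and 4 that were lower, where 26.9% and 24.3% of all genes were separated in those directions. Under siErk3 this held for 18 higher and 9 lower members (27.5% and 26.5% of all genes), and under siMk5 for 22 and 6 (27.3% and 24.6%). These are bulk samples, in which more or fewer cells of a kind and more or less RNA per cell cannot be told apart. Markers of undifferentiated and dividing myoblasts also moved with PA. All 5 passed the count filter, and their sum ran from 802 to 877 CPM over the BSA libraries and from 329 to 436 CPM over the PA libraries. Summed myotube markers were lower with PA in siNtc, from 13523 to 14032 CPM in BSA to 12201 to 12440 CPM in PA. The sum was also lower in siErk3, from 14104 to 15585 CPM to 12869.6 to 13587 CPM, while in siMk5 the media overlapped. Not every myotube marker fell. Des was higher in every PA library than in every BSA library of the same siRNA, and Acta1 overlapped in siNtc. The part of both lists in the results was not tested. The 18S share moved in opposite directions with PA, from 1.497% to 2.96% in siErk3 BSA to 3.74% to 6.77% in siErk3 PA, and from 8.39% to 12.9% in siMk5 BSA to 1.71% to 6.69% in siMk5 PA. With that share as a covariate in the fit, 13 members rose and 3 fell in siNtc, 8 and 6 in siErk3, and 14 and 3 in siMk5.

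**Figure D1:**
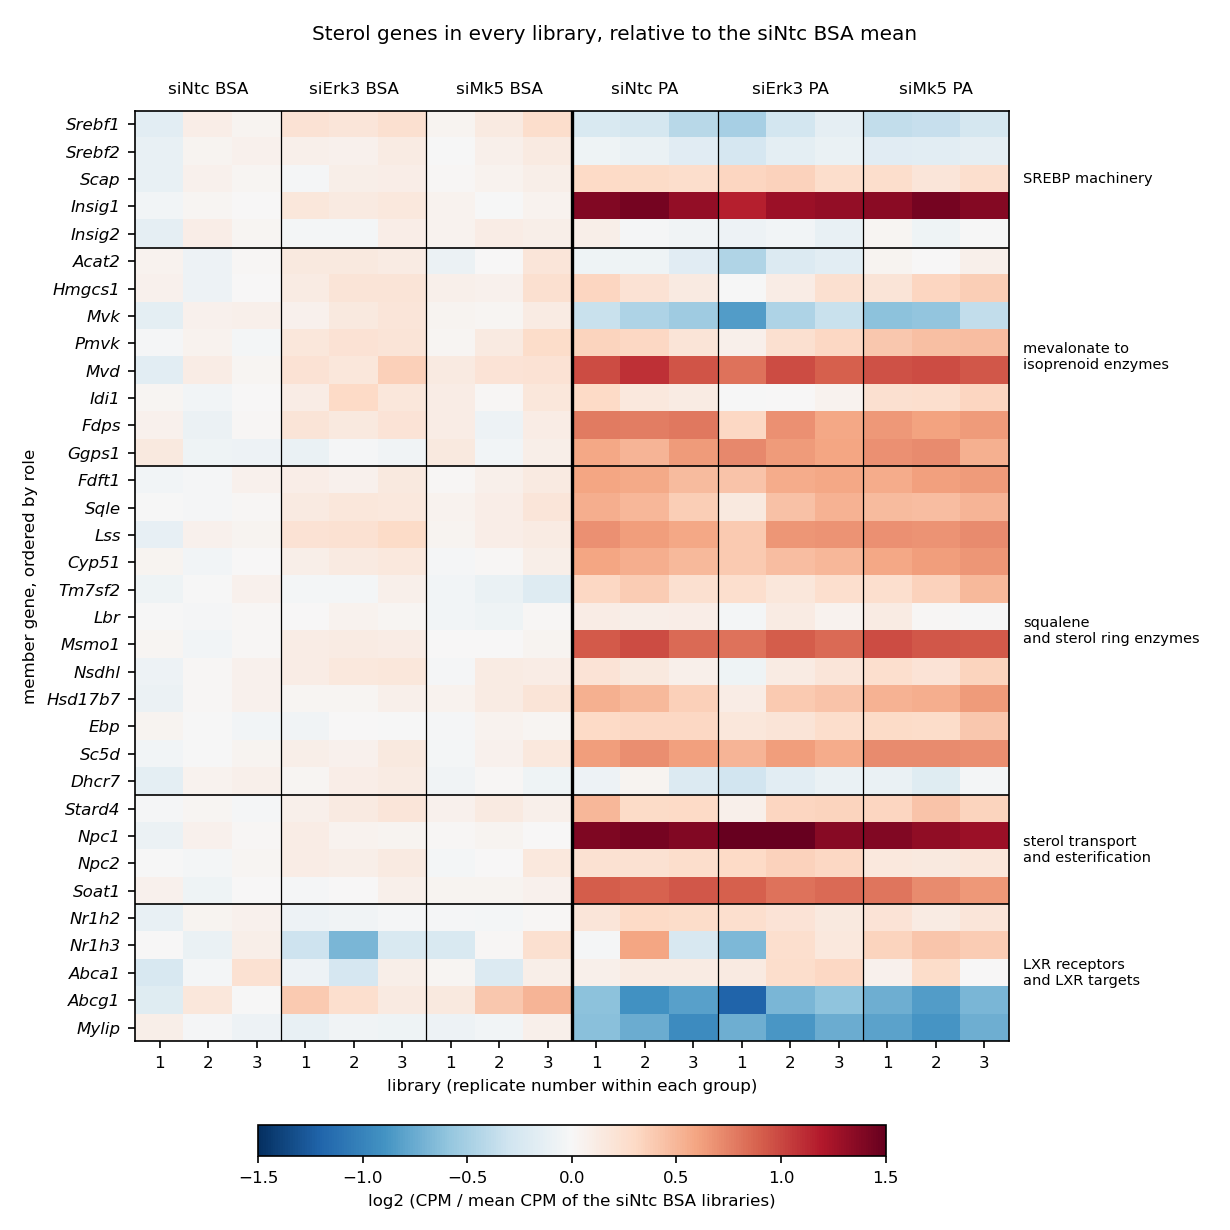
Heat map of the 34 members (rows, by role) in the 18 libraries (columns, by group), coloured by the log2 ratio of CPM to the mean of the 3 siNtc BSA libraries. The right block, PA, shows Insig1 and Npc1 as the deepest red rows and Mvk, Abcg1 and Mylip in blue in every PA library. The BSA columns are mostly pale, apart from cells such as Nr1h3 in siErk3 BSA (blue) and Abcg1 in siMk5 BSA (red).

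Within the SREBP machinery, 1 of 5 genes rose under each siRNA. This is near the share of all genes that rose, 15.5%, 15.8% and 15.1% in siNtc, siErk3 and siMk5. Insig1, which holds the SREBP escort in the endoplasmic reticulum and is itself an SREBP target, stood at 80.2, 84.6 and 83.2 CPM in siNtc BSA, 93.1, 91.1 and 92.0 CPM in siErk3 BSA and 85.5, 82.4 and 85.7 CPM in siMk5 BSA. With PA it stood at 217, 224 and 206 CPM in siNtc PA, 185, 202 and 207 CPM in siErk3 PA and 211, 224 and 214 CPM in siMk5 PA. Every PA library was above every BSA library, by a log2 fold change of 1.38 ± 0.048 (SE; 2.61-fold) in siNtc, 1.105 ± 0.047 in siErk3 and 1.36 ± 0.047 in siMk5 (edgeR FDR at most 1.12e-18). The lowest of its PA values came from siErk3 PA. Insig1 lies on the plus strand at chr5:28276361-28283660 in GRCm39.

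Srebf1, whose products favour the genes of fatty acid synthesis, went the other way. It stood at 108, 129 and 124 CPM in siNtc BSA, 139.5, 137 and 142 CPM in siErk3 BSA and 124, 132 and 144 CPM in siMk5 BSA. Its PA values were 103, 101 and 90.4 CPM in siNtc PA, 85.2, 99.2 and 109 CPM in siErk3 PA and 93.6, 95.1 and 101 CPM in siMk5 PA. The media overlapped for no siRNA, although the highest siErk3 PA value, 109 CPM, exceeds the lowest siNtc BSA value, 108 CPM. Srebf1 fell with a change of -0.51 on the log2 scale in siErk3 and -0.47 in siMk5 (edgeR FDR 2.09e-07 and 1.28e-06), while in siNtc its value of -0.30 ± 0.07 had an FDR of 5.91e-04 but stayed inside 1.3-fold. Without siNtc BSA library 1 the siNtc value was -0.39 and passed, and with the 18S share as a covariate the siMk5 value was -0.35 and did not. Srebf2 had values of -0.11, -0.26 and -0.22 in siNtc, siErk3 and siMk5, Scap, the escort, 0.28, 0.25 and 0.18, and Insig2, the second retention protein, 0.00, -0.09 and -0.10, all inside 1.3-fold.

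Enzymes from acetoacetyl-CoA to the isoprenoids did not move as a block. Mvd, the decarboxylase that makes isopentenyl diphosphate, stood at 25.01, 30.1 and 28.4 CPM in siNtc BSA, 32.2, 31.2 and 35.6 CPM in siErk3 BSA and 30.6, 32.2 and 32.2 CPM in siMk5 BSA. The PA libraries held 54.9, 59.6 and 53.5 CPM in siNtc PA, 48.8, 54.9 and 51.9 CPM in siErk3 PA and 53.9, 54.7 and 53.2 CPM in siMk5 PA. All PA values lay above all BSA values, and Mvd rose by 1.00 ± 0.066 (SE) on the log2 scale in siNtc, 0.65 ± 0.063 in siErk3 and 0.77 ± 0.064 in siMk5 (edgeR FDR at most 2.46e-10). Mvd lies on the minus strand at chr8:123160340-123170161 in GRCm39.

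Ggps1, which makes the geranylgeranyl group used for protein prenylation, stood at 40.7, 35.1 and 34.8 CPM in siNtc BSA, 34.6, 36.4 and 35.5 CPM in siErk3 BSA and 40.8, 35.9 and 39.2 CPM in siMk5 BSA. In PA its level was 55.0, 52.5 and 57.5 CPM in siNtc PA, 60.8, 57.6 and 55.5 CPM in siErk3 PA and 59.1, 60.5 and 53.6 CPM in siMk5 PA. The media were again separate for each siRNA, and Ggps1 rose by 0.59, 0.71 and 0.58 (edgeR FDR at most 4.01e-09). It was the only enzyme of the 8 whose siErk3 value was above its siNtc value.

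Fdps, the farnesyl diphosphate synthase just before squalene, had 151 to 451 counts per library. It stood at 10.6, 9.58 and 10.3 CPM in siNtc BSA, 11.6, 11.3 and 11.7 CPM in siErk3 BSA and 10.9, 9.61 and 10.99 CPM in siMk5 BSA. With PA it stood at 17.4, 17.4 and 17.6 CPM in siNtc PA, 12.6, 16.3 and 15.2 CPM in siErk3 PA and 16.0, 15.4 and 15.9 CPM in siMk5 PA. PA values were above BSA values throughout, but the steps differed in size: 0.79 ± 0.087 in siNtc, 0.35 ± 0.082 in siErk3 and 0.58 ± 0.086 in siMk5 (edgeR FDR 4.32e-09, 5.79e-04 and 1.11e-06). The siErk3 value did not reach 1.3-fold. Without siErk3 PA library 1, which was the lowest PA library, it was 0.43 and did.

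Mvk, mevalonate kinase, fell while Mvd, which acts further down the same pathway, rose. It stood at 28.6, 33.1 and 33.4 CPM in siNtc BSA, 33.1, 35.2 and 35.9 CPM in siErk3 BSA and 32.6, 32.3 and 34.4 CPM in siMk5 BSA. Its PA values were 25.1, 23.03 and 21.9 CPM in siNtc PA, 17.7, 22.9 and 25.1 CPM in siErk3 PA and 20.7, 20.96 and 24.6 CPM in siMk5 PA. Every PA value was below every BSA value, with log2 changes of -0.45 ± 0.089, -0.67 ± 0.086 and -0.59 ± 0.089 (edgeR FDR 8.61e-05, 8.32e-08 and 1.64e-06). Mvk lies on the plus strand at chr5:114582330-114598652 in GRCm39, and its window above holds CCAAT on either strand 5 times.

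Acat2, the cytosolic thiolase that starts the pathway, was called in siErk3 alone. It stood at 61.7, 56.2 and 60.4 CPM in siNtc BSA, 65.8, 65.5 and 64.8 CPM in siErk3 BSA and 56.1, 59.8 and 67.6 CPM in siMk5 BSA. The PA libraries held 56.6, 56.8 and 52.7 CPM in siNtc PA, 43.6, 51.4 and 53.0 CPM in siErk3 PA and 61.1, 59.7 and 62.9 CPM in siMk5 PA. PA and BSA values were separate in siErk3 and overlapped in siNtc and siMk5. The change was -0.41 ± 0.064 in siErk3 (edgeR FDR 2.65e-06) against -0.10 ± 0.065 in siNtc and 0.00 ± 0.064 in siMk5, and without siErk3 PA library 1 it was -0.34 and inside 1.3-fold. Its counts are uncertain to the extent that read pairs fit its near-identical neighbour Acat3. The remaining enzymes stayed inside 1.3-fold under every siRNA: Hmgcs1 had 0.23, -0.06 and 0.16, Pmvk, the second kinase of mevalonate, 0.28, 0.02 and 0.29, and Idi1, the isomerase, 0.20, -0.18 and 0.18. Idi1 stood at 49.8, 47.3 and 48.8 CPM in siNtc BSA, 52.6, 59.7 and 54.5 CPM in siErk3 BSA and 52.5, 49.2 and 54.6 CPM in siMk5 BSA. Its PA values were 59.9, 54.3 and 53.2 CPM in siNtc PA, 48.5, 48.9 and 50.3 CPM in siErk3 PA and 57.5, 58.1 and 61.0 CPM in siMk5 PA. The media were separated under each siRNA, upward in siNtc and siMk5 and downward in siErk3, with edgeR FDRs of 0.00416, 0.0108 and 0.00906 in that order. Hmgcs1, which had the highest mean RPKM of the members in siNtc BSA, was thus among those not called. It passed the FDR alone in siNtc and siMk5 (edgeR FDR 0.00180 and 0.0249).

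Among the 12 squalene and sterol ring enzymes, 7 rose and none fell in siNtc, 3 rose and none fell in siErk3, and 7 rose and none fell in siMk5. Of all genes tested 15.5%, 15.8% and 15.1% rose in that order, and 15.1%, 16.3% and 14.6% fell. The siErk3 count of rises was thus not far from the share of all genes. Msmo1, which strips methyl groups from the sterol ring, stood at 90.8, 86.1 and 89.7 CPM in siNtc BSA, 96.0, 97.1 and 96.3 CPM in siErk3 BSA and 89.4, 89.3 and 91.2 CPM in siMk5 BSA. In PA its level was 168, 175 and 160.5 CPM in siNtc PA, 156, 167 and 159.9 CPM in siErk3 PA and 175, 169 and 168 CPM in siMk5 PA. The media were far apart, and Msmo1 rose by 0.92 ± 0.044 (SE), 0.74 ± 0.043 and 0.93 ± 0.044 on the log2 scale in siNtc, siErk3 and siMk5 (edgeR FDR at most 3.32e-15). It lies on the minus strand at chr8:65171173-65186826 in GRCm39.

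Sc5d, the desaturase that acts late in the ring, stood at 63.4, 64.7 and 67.0 CPM in siNtc BSA, 68.9, 68.1 and 71.7 CPM in siErk3 BSA and 63.8, 67.8 and 72.5 CPM in siMk5 BSA. With PA it stood at 101, 105.1 and 99.6 CPM in siNtc PA, 92.9, 101 and 95.5 CPM in siErk3 PA and 106, 107 and 106 CPM in siMk5 PA. No PA value came near a BSA value, and Sc5d rose by 0.65, 0.47 and 0.64 (edgeR FDR at most 8.92e-10). Fdft1, squalene synthase, which commits farnesyl units to sterols, stood at 104, 105.3 and 112 CPM in siNtc BSA, 115, 112 and 118 CPM in siErk3 BSA and 108, 113 and 118 CPM in siMk5 BSA. Its PA values were 161, 158 and 149 CPM in siNtc PA, 144, 158 and 159 CPM in siErk3 PA and 157, 164 and 167 CPM in siMk5 PA. It rose by 0.54, 0.42 and 0.53 (edgeR FDR at most 1.03e-08), the siErk3 value falling just inside 1.3-fold, at 0.38, without siErk3 PA library 3.

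Cyp51, the demethylase of lanosterol, stood at 211, 199.8 and 206 CPM in siNtc BSA, 219, 225 and 229 CPM in siErk3 BSA and 203, 209 and 219 CPM in siMk5 BSA. The PA libraries held 311, 299.8 and 289 CPM in siNtc PA, 269.8, 284 and 291 CPM in siErk3 PA and 307, 318 and 325 CPM in siMk5 PA. It rose by 0.55 in siNtc and 0.59 in siMk5, and its siErk3 value of 0.33 ± 0.044 had an edgeR FDR of 2.01e-07 but did not reach 1.3-fold. Lss, which makes lanosterol, the first sterol of the pathway, stood at 73.4, 83.5 and 82.2 CPM in siNtc BSA, 92.6, 93.1 and 96.9 CPM in siErk3 BSA and 81.8, 85.6 and 86.9 CPM in siMk5 BSA. In PA its level was 128, 123 and 119 CPM in siNtc PA, 104.98, 126 and 127 CPM in siErk3 PA and 128, 127 and 129.9 CPM in siMk5 PA. Lss likewise rose by 0.63 in siNtc and 0.60 in siMk5, with 0.34 ± 0.057 in siErk3, where PA library 1 was the lowest of the PA libraries and the value without it was 0.41 and past 1.3-fold.

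The other members of the group were weaker. Sqle, the epoxidase of squalene, rose in siNtc by 0.47, with 0.22 in siErk3 and 0.37 in siMk5, the last passing at 0.41 without siMk5 BSA library 3 and at 0.42 with the 18S share as a covariate. Hsd17b7, a ketosteroid reductase of the ring, rose in siNtc by 0.45 and in siMk5 by 0.44, with 0.26 in siErk3. Tm7sf2, a sterol reductase, rose in siMk5 by 0.47, with 0.31 in siNtc and 0.21 in siErk3. Never called were Ebp, the sterol isomerase (0.31, 0.23 and 0.30 in the same order), Nsdhl, a sterol dehydrogenase (0.14, -0.06 and 0.19), Lbr, which is also a nuclear membrane protein (0.10, 0.02 and 0.08), and Dhcr7, the reductase of the last step (-0.08, -0.27 and -0.07). With the 18S share as a covariate the siErk3 value of Dhcr7 was -0.39 and passed.

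**Figure D2:**
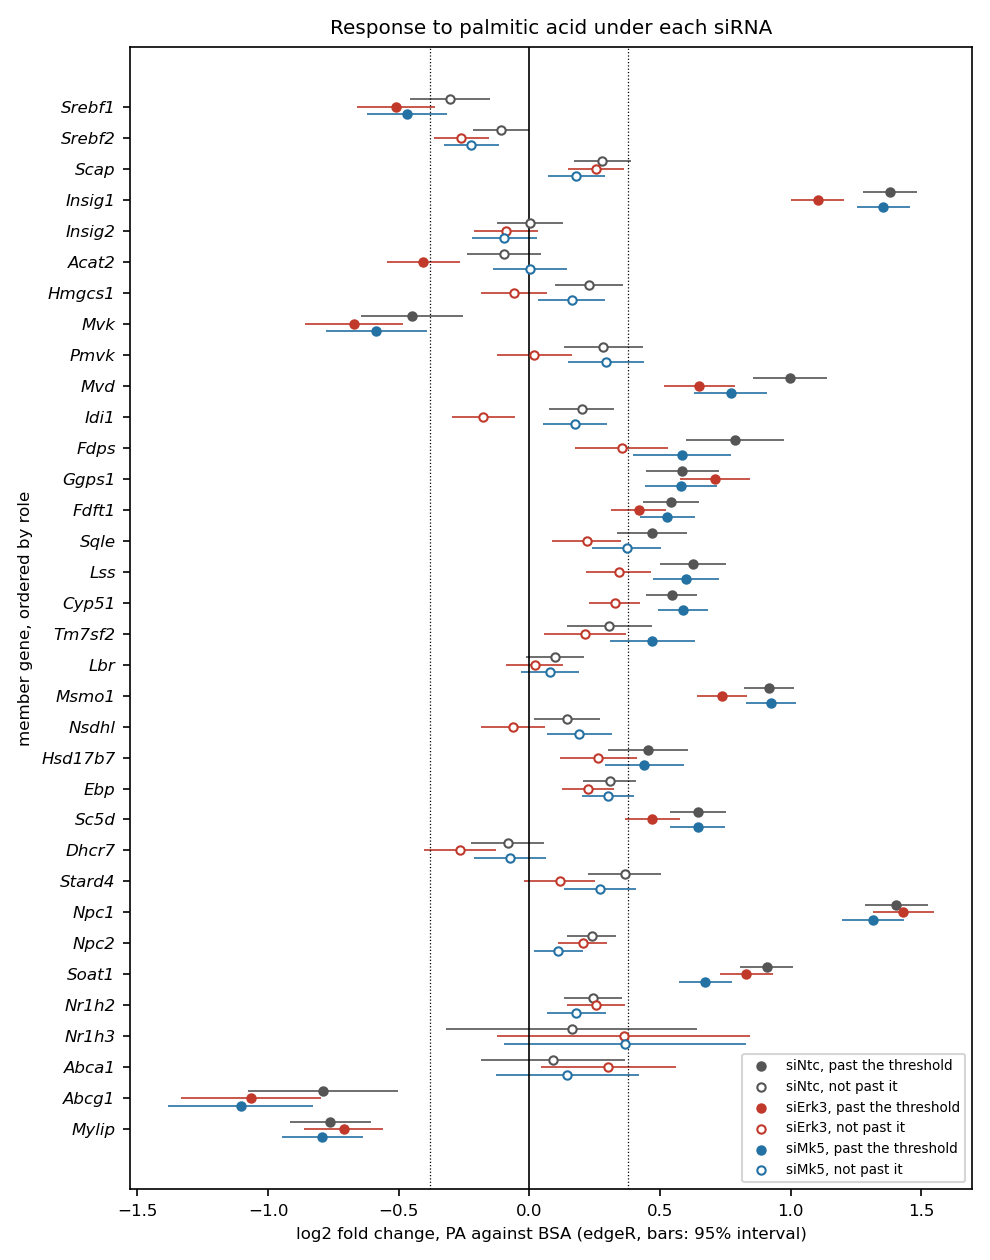
Log2 fold change of PA against BSA for each of the 34 members (rows, by role) under siNtc (grey), siErk3 (red) and siMk5 (blue), with 95% intervals; filled points passed the threshold and dotted lines mark 1.3-fold. Npc1 and Insig1 lie farthest to the right and Abcg1 farthest to the left, and for most sterol enzymes the red point lies left of the grey one.

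The transport and esterification genes that rose, Npc1 and Soat1, act on cholesterol that is already in the cell. Npc1, the membrane protein that lets cholesterol out of lysosomes, stood at 38.8, 42.9 and 41.6 CPM in siNtc BSA, 44.3, 42.5 and 42.3 CPM in siErk3 BSA and 41.4, 42.4 and 41.3 CPM in siMk5 BSA. With PA it stood at 109, 111 and 108 CPM in siNtc PA, 119, 123 and 105.4 CPM in siErk3 PA and 108, 103 and 100.3 CPM in siMk5 PA. It rose by 1.41 ± 0.055 (SE; 2.65-fold), 1.43 ± 0.053 and 1.32 ± 0.055 on the log2 scale in siNtc, siErk3 and siMk5 (edgeR FDR at most 1.14e-18), which were the widest rises of any member in siNtc and siErk3.

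Soat1, which esterifies cholesterol with a fatty acid for storage in droplets, stood at 101, 92.4 and 97.2 CPM in siNtc BSA, 95.6, 97.5 and 102 CPM in siErk3 BSA and 99.9, 99.4 and 101 CPM in siMk5 BSA. Its PA values were 181, 179 and 185 CPM in siNtc PA, 181, 170.2 and 175 CPM in siErk3 PA and 169, 158 and 152 CPM in siMk5 PA. The siMk5 PA values were below those of every other PA library, and all were above BSA. Soat1 rose by 0.91 ± 0.047, 0.83 ± 0.046 and 0.67 ± 0.046 (edgeR FDR at most 1.97e-13). It lies on the minus strand at chr1:156252095-156301901 in GRCm39. The sterol carrier Stard4 had 0.37, 0.12 and 0.27, the siNtc value passing at 0.38 without siNtc PA library 2, and Npc2 had 0.24, 0.20 and 0.11.

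Of the 5 LXR genes, 2 targets fell and neither receptor passed both the FDR and the 1.3-fold minimum. The shares of all genes that fell were 15.1%, 16.3% and 14.6% in siNtc, siErk3 and siMk5. Mylip, an LXR-induced ligase that marks lipoprotein receptors for degradation, stood at 38.4, 35.8 and 34.2 CPM in siNtc BSA, 33.5, 34.7 and 34.7 CPM in siErk3 BSA and 34.3, 35.0 and 38.0 CPM in siMk5 BSA. The PA libraries held 23.3, 21.5 and 18.8 CPM in siNtc PA, 21.7, 19.7 and 21.6 CPM in siErk3 PA and 20.7, 19.5 and 21.7 CPM in siMk5 PA. Every PA library was below every BSA library, and Mylip fell with log2 changes of -0.76 ± 0.071, -0.71 ± 0.069 and -0.79 ± 0.071 (edgeR FDR at most 3.39e-10). It lies on the plus strand at chr13:45543218-45565498 in GRCm39.

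Abcg1, an exporter that loads cholesterol on lipoprotein particles, was counted 93 to 290 times per library. It stood at 8.22, 10.5 and 9.27 CPM in siNtc BSA, 12.3, 11.1 and 10.2 CPM in siErk3 BSA and 10.3, 12.4 and 13.3 CPM in siMk5 BSA. In PA its level was 6.12, 4.97 and 5.31 CPM in siNtc PA, 4.07, 5.79 and 6.15 CPM in siErk3 PA and 5.62, 5.22 and 5.83 CPM in siMk5 PA. It fell with changes of -0.79 ± 0.13 (1.73-fold lower), -1.07 ± 0.12 and -1.105 ± 0.13 (edgeR FDR at most 7.86e-06), the widest falls of any member. Abca1, the exporter usually regulated together with it, had 0.09 ± 0.13, 0.30 ± 0.12 and 0.15 ± 0.13, above 0 under each siRNA. None of these was called, the siErk3 value passing at 0.39 without siErk3 BSA library 3. LXRβ (Nr1h2) had 0.24, 0.26 and 0.18, inside 1.3-fold but with every PA library above every BSA library of the same siRNA (edgeR FDR at most 0.00424). LXRα (Nr1h3), with 30 to 69 counts per library, had 0.16 ± 0.22, 0.36 ± 0.22 and 0.37 ± 0.21, so that a change of 1.3-fold in Nr1h3 was not detectable at this depth.

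**Figure D3:**
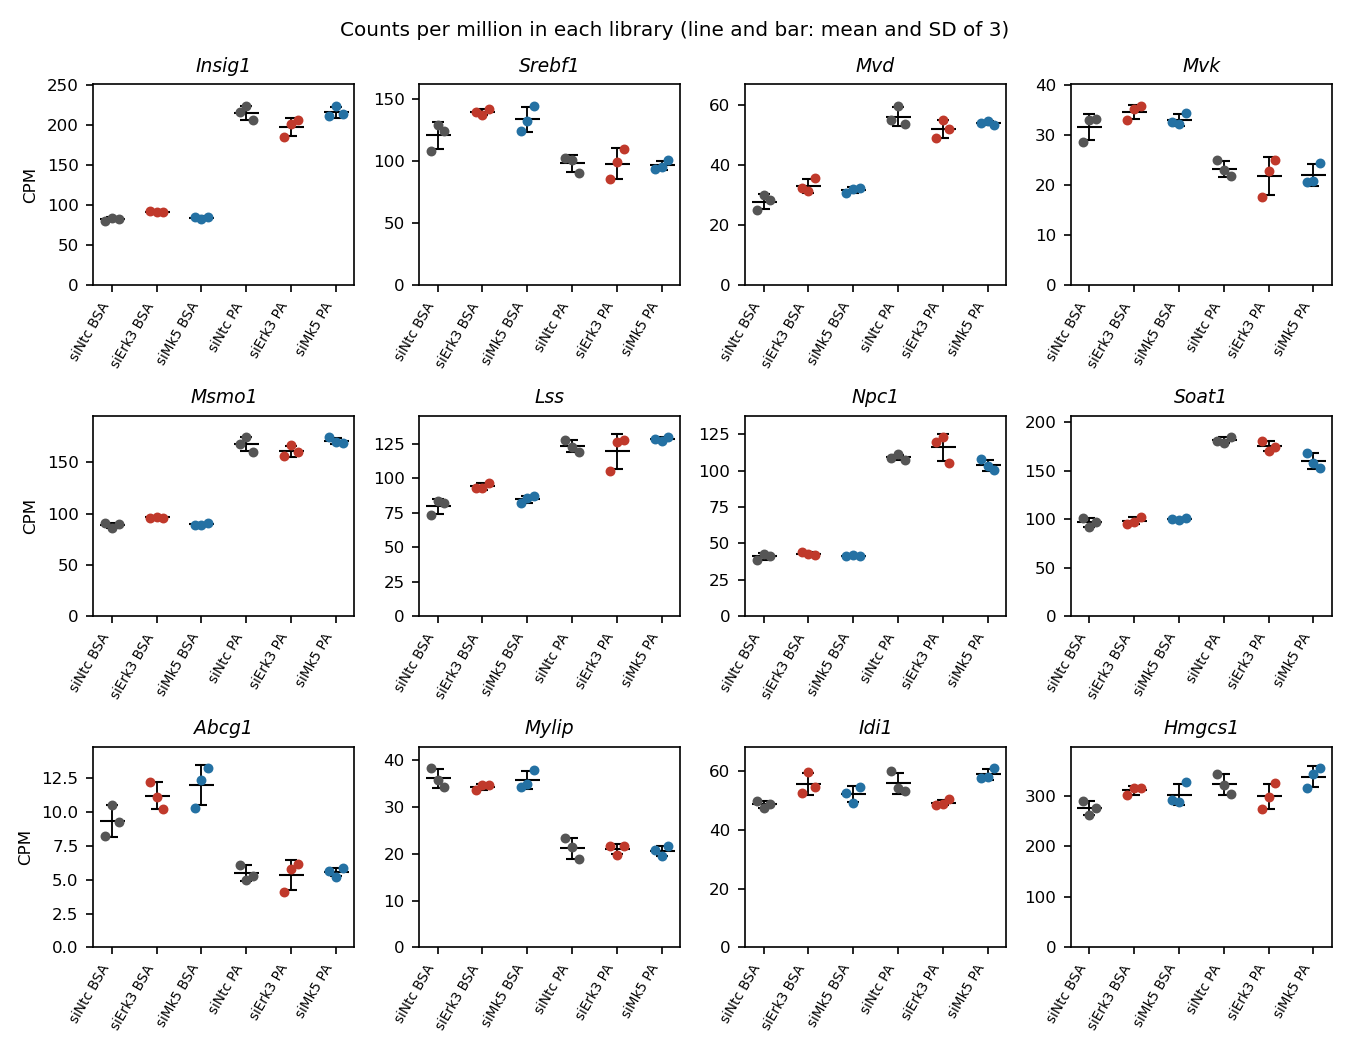
CPM of 12 members in each of the 18 libraries, by group (BSA groups left, PA groups right; grey siNtc, red siErk3, blue siMk5), with the mean and SD of 3 libraries; every axis starts at 0. Insig1, Mvd, Msmo1, Lss, Npc1 and Soat1 are higher in all PA libraries and Mvk, Abcg1 and Mylip lower, while Hmgcs1 and Idi1 differ from BSA by less than 1.3-fold.

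Silencing by itself called no member. In siErk3 against siNtc in BSA, 0 of 34 passed edgeR's threshold (0.588% of all genes were higher and 0.198% lower) and 0 passed in DESeq2, but the members leaned upward. Of the 34, 28 had a log2 difference above 0, against 54.9% of all genes, their median was 0.11 against 0.02, and 17 had an unadjusted p below 0.05, against 10.6% of all genes. The siErk3 and siNtc libraries did not overlap for 18 members that were higher and 1 that was lower, where 11.5% and 5.94% of all genes were separated in those directions. Lss, with 0.24 ± 0.059 (SE), passed the FDR alone (edgeR FDR 0.0366, as 0.896% of all genes did upward), followed in order of p by Mvd (0.24), Idi1 (0.20), Insig1 (0.15) and Srebf1 (0.21). The 1 separated member that was lower was Nr1h3, at 1.69, 1.31 and 1.79 CPM in siErk3 BSA and 2.11, 1.96 and 2.22 CPM in siNtc BSA (-0.38 ± 0.23, edgeR FDR 0.594). For 30 of the 34 the 95% interval lay wholly inside 1.3-fold. The siErk3 BSA libraries also had lower 18S shares than the siNtc BSA libraries, with some overlap, and with that share as a covariate the median was 0.12. With 1 library left out it ran from 0.08 without siNtc BSA library 1 to 0.12 without siErk3 BSA library 2. The former had the fewest assigned read pairs of the series, 13041979. The sum of the markers of undifferentiated and dividing myoblasts was higher too, at 835 to 870.0 CPM in siErk3 BSA. In siNtc BSA it ran from 802 to 831 CPM, without overlap. Of these markers Pax7 and Mki67 were separated upward, while Top2a, Ccnb1 and Myf5 overlapped. The sum of the 10 myotube markers was likewise separated. It ran from 14104 to 15585 CPM in siErk3 BSA and from 13523 to 14032 CPM in siNtc BSA. Single markers went both ways. Myh3, Myh8 and Acta1 were separated upward, Mylpf, Tnnt3 and Myog downward, and the others overlapped. The part of either list in the lean was not tested.

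In PA the lean of siErk3 was downward. Again 0 of 34 passed in edgeR and in DESeq2 (0.432% of all genes were higher and 0.124% lower), 7 had an unadjusted p below 0.05 (8.28% of all genes), and 29 of 34 had a difference below 0, against 51.1% of all genes, with a median of -0.08 against -0.0037. The siErk3 and siNtc libraries did not overlap for 2 members that were higher and 3 that were lower. Among the 21772 genes tested 1371 and 1270 were separated in those directions, shares close to those of the members. Idi1 (-0.18, edgeR FDR 0.176) and Fdps (-0.24, FDR 0.220) had the smallest p-values. Without siErk3 PA library 1 the median was closer to 0, at -0.04, and without siNtc PA library 1 it was -0.05. The intervals of 31 members lay inside 1.3-fold. The myotube markers summed to 12869.6 to 13587 CPM in siErk3 PA and to 12201 to 12440 CPM in siNtc PA, again without overlap. Single markers again went both ways. Myh3, Myh8, Acta1 and Ckm were separated upward, Myh1 and Tnnt3 downward, and the others overlapped. The part of these markers in the lean was not tested.

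In siMk5 against siNtc no member passed in either medium, in edgeR or in DESeq2. In BSA (0.0138% of all genes higher and 0.0505% lower) 4 members had an unadjusted p below 0.05 (6.89% of all genes), 28 were above 0 (53.9% of all genes), and the median was 0.06 against 0.01, becoming 0.03 without siMk5 BSA library 3 and 0.09 without siMk5 BSA library 1. The same myoblast markers summed to 843 to 877 CPM in siMk5 BSA, again above siNtc BSA, and the myotube markers to 12422 to 13689.7 CPM, overlapping siNtc BSA. The 18S shares of siMk5 BSA, 8.39% to 12.9%, lay above those of siNtc BSA, 2.56% to 7.17%, and with that share as a covariate the median was 0.03, as it was when only these groups were fitted. In PA (0.0551% higher and 0.491% lower) 4 had an unadjusted p below 0.05 (6.79% of all genes), 19 were above 0 (50.6% of all genes) and the median was 0.01, which turned to -0.01 without siNtc PA library 3 and to -0.0047 without siMk5 PA library 3, and stood at 0.03 without siNtc PA library 1 or 2. Soat1, at -0.18 ± 0.045 (SE), passed the FDR alone (edgeR FDR 0.0434, as 0.634% of all genes did downward), its 3 siMk5 PA values of 169, 158 and 152 CPM lying below the siNtc PA values of 181, 179 and 185 CPM. The intervals of 32 members in BSA and 33 in PA lay inside 1.3-fold. These comparisons share their siNtc libraries with those of siErk3.

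Compared directly, siErk3 and siMk5 shared no called difference. In BSA 0 of 34 passed in edgeR and DESeq2 (0.482% of all genes were higher in siErk3 and 0.106% lower) and 4 had an unadjusted p below 0.05 (8.49% of all genes). There 24 of 34 were above 0 (51.3% of all genes), the median was 0.04 against 0.0041, and 6 were separated upward and 0 downward (8.07% and 7.2% of all genes). This median ranged from 0.02 without siMk5 BSA library 1 to 0.08 without siMk5 BSA library 3, and was 0.07 without siErk3 BSA library 1 or with the 18S share as a covariate. The myotube marker sums of these groups also stood apart. They ran from 14104 to 15585 CPM in siErk3 BSA and from 12422 to 13689.7 CPM in siMk5 BSA, and their part was not tested. In PA 0 of 34 passed in edgeR and DESeq2 (0.854% and 0.175% of all genes), but 14 had an unadjusted p below 0.05 (10.2% of all genes), and 3 passed the FDR alone, all lower in siErk3 (0.432% of all genes). They were Acat2 (-0.31 ± 0.065, edgeR FDR 0.00457), Idi1 (-0.26 ± 0.056, FDR 0.00751) and Cyp51 (-0.17 ± 0.044, FDR 0.0409). Idi1 stood at 48.5, 48.9 and 50.3 CPM in siErk3 PA and at 57.5, 58.1 and 61.0 CPM in siMk5 PA, and the groups did not overlap. Of the transport genes 3 went the other way, with Npc1 at 0.16, Npc2 at 0.16 and Soat1 at 0.13. Of the 34 differences 24 were below 0 (50.7% of all genes), and the median was -0.09, and -0.03 without siErk3 PA library 1. The groups did not overlap for 3 members that were higher in siErk3 and 11 that were lower. Among the 21772 genes tested 1625 and 1580 were separated in those directions.

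**Figure D4:**
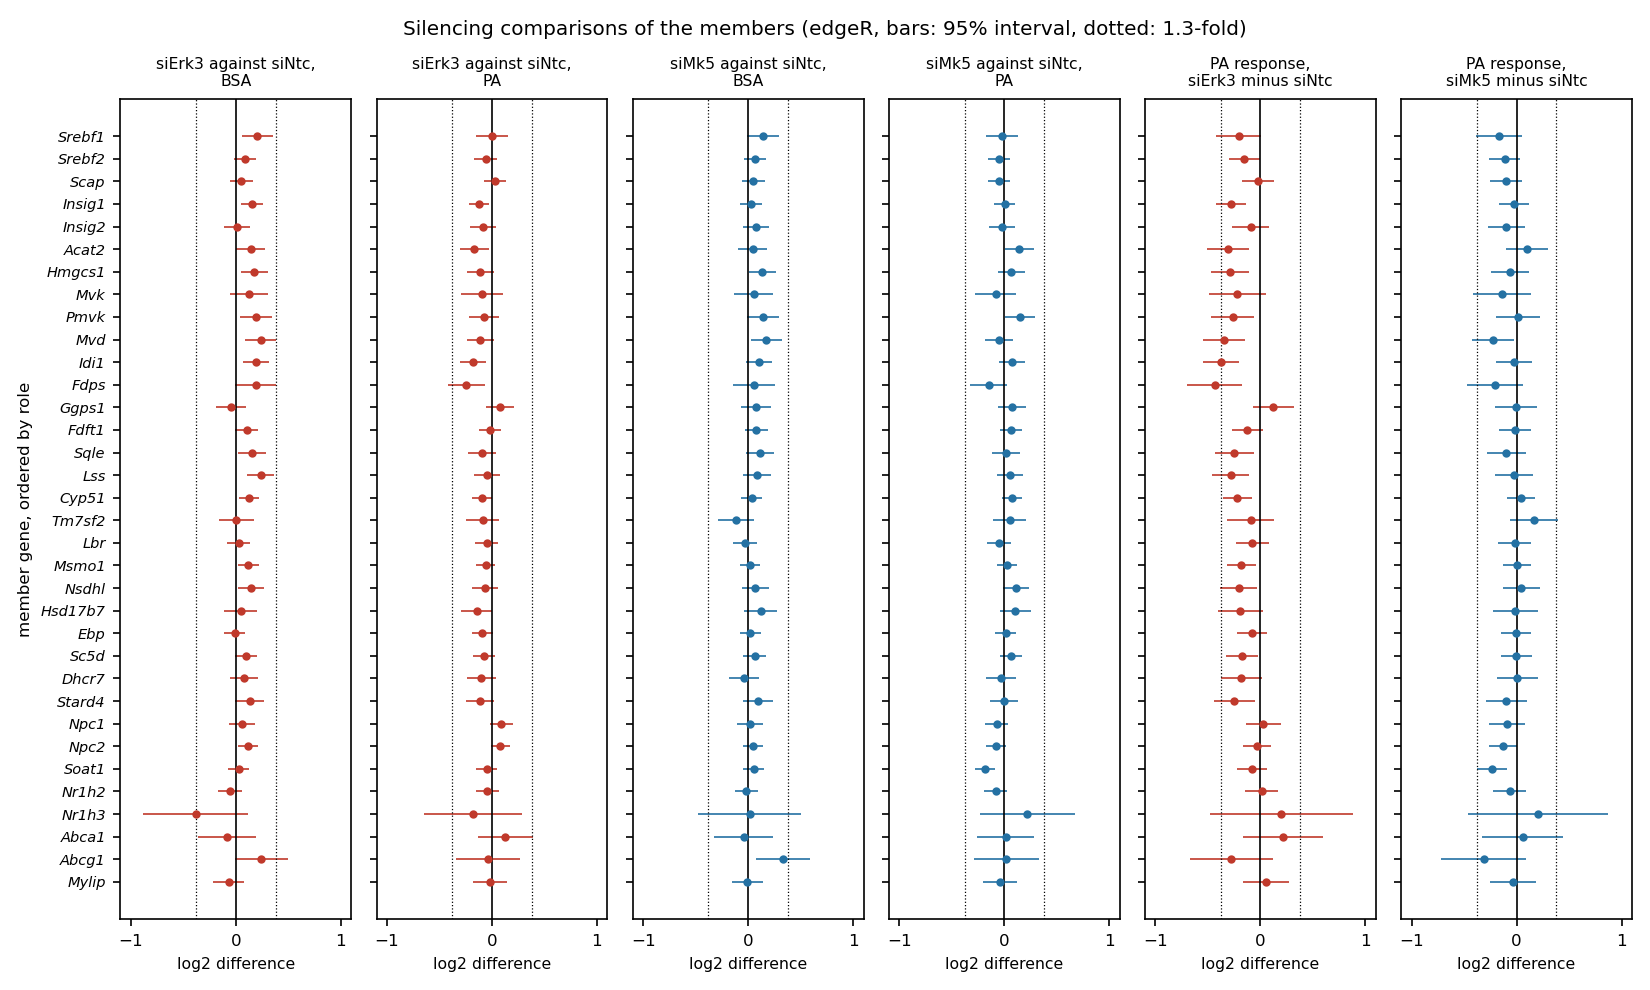
Log2 differences of the 34 members (rows, by role) for siErk3 (red) and siMk5 (blue) against siNtc in BSA and in PA, and for the difference in PA response (right), with 95% intervals and dotted lines at 1.3-fold. No member passed the threshold in any panel; the siErk3 points lie mostly right of 0 in BSA and left of 0 in PA and in the PA response, and Nr1h3 has the widest intervals.

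The difference between the PA responses was tested as an interaction in the same fit. For siErk3 against siNtc 0 of 34 members passed in edgeR and in DESeq2 (0.00919% of all genes were higher and 0.0276% lower), while 16 had an unadjusted p below 0.05, against 6.1% of all genes. Their interaction terms were below 0 for 28 of 34, against 55.9% of all genes, with a median of -0.18 against -0.03. Idi1 had the smallest FDR, at -0.38 ± 0.08 (95% interval -0.55 to -0.20, edgeR FDR 0.103). Its counterpart values were 0.20 for PA in siNtc and -0.18 in siErk3, and without siErk3 PA library 3 it was the 1 member that passed, at -0.39. Next came Insig1 at -0.28 ± 0.066 (FDR 0.179), Mvd at -0.35 ± 0.091 (FDR 0.300) and Fdps at -0.43 ± 0.12 (FDR 0.382), all by edgeR.

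By role, all 12 ring enzymes (median -0.18) and 7 of 8 mevalonate enzymes (median -0.30) had siErk3 interaction terms below 0, Ggps1 being the exception at 0.12, as had 5 of 5 genes of the SREBP machinery (median -0.15) and 3 of 4 transport and esterification genes (median -0.06), of which Npc1 alone was above 0, at 0.03. Of the 5 LXR genes 4 were above 0 (median 0.05). The median over all members was -0.11 without siErk3 PA library 1 and -0.14 without siNtc BSA library 1. For 17 of the 34 the 95% interval lay inside 1.3-fold, and for the other 17 it reached beyond. For siMk5 against siNtc 0 of 34 passed in edgeR and in DESeq2 (0.0505% of all genes higher, 0.161% lower), 3 had an unadjusted p below 0.05 (7.43% of all genes), 25 were below 0 (53.9% of all genes), and the median was -0.03 against -0.02. This median ranged from -0.0054 without siMk5 BSA library 3 to -0.05 without siMk5 BSA library 1 when 1 library was left out, and stood at -0.0058 without siNtc PA library 1, -0.01 without siMk5 PA library 1, and -0.04 to -0.05 without siMk5 BSA library 2, siNtc PA library 3 or siMk5 PA library 3. Since an interaction term is the difference of the 2 PA responses, it holds the same libraries as the comparisons above and is no further evidence for them.

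**Figure D5:**
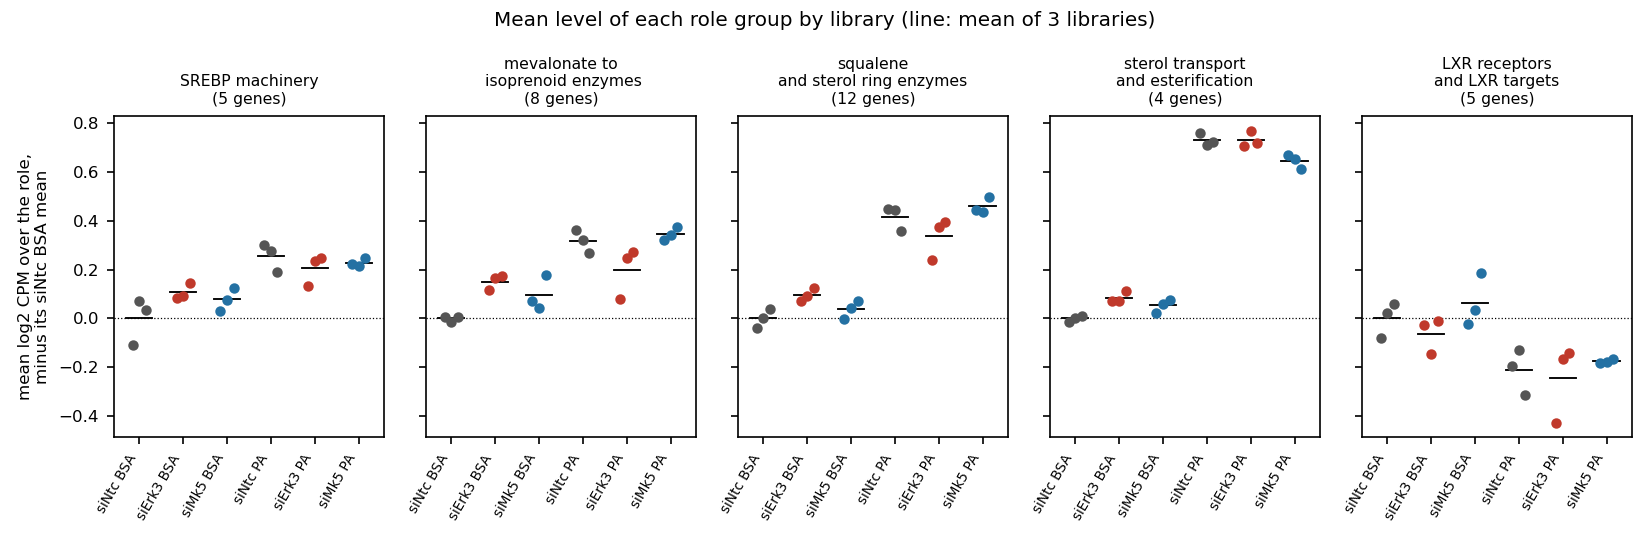
Mean log2 CPM over the genes of each role in each library, minus the role's mean in siNtc BSA (grey siNtc, red siErk3, blue siMk5; the line is the mean of 3 libraries). Transport and esterification genes sit between 0.61 and 0.77 in PA, the ring enzymes between 0.24 and 0.50, with siErk3 PA library 1 lowest, and the LXR genes below 0 in every PA library.

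Seen library by library, the mean over the 12 ring enzymes ran from 0.36 to 0.45 in siNtc PA, from 0.24 to 0.40 in siErk3 PA and from 0.44 to 0.50 in siMk5 PA, relative to siNtc BSA. The 8 mevalonate enzymes ran from 0.27 to 0.36, from 0.08 to 0.27 and from 0.32 to 0.37 in the same order. In both roles siErk3 PA library 1 was the lowest PA library. In the transport genes it stood at 0.70, with 0.72 and 0.77 in the other siErk3 PA libraries and 0.71 to 0.76 in siNtc PA. That library had 23225146 assigned read pairs and an 18S share of 3.74%, both within the range of the series, but its markers of undifferentiated and dividing myoblasts had the lowest sum of the 18 libraries, 329 CPM against 406 and 436 CPM in the other siErk3 PA libraries. Their part in the low sterol values was not tested.

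Genes around the pathway that are not members were read from 5 further lists, chosen like the members with earlier results of these data known. Their counts of called genes are to be read against the shares of all genes given above, 15.5%, 15.8% and 15.1% higher and 15.1%, 16.3% and 14.6% lower in siNtc, siErk3 and siMk5. Of 10 genes of SREBP processing and sterol-dependent degradation, 4 rose and 2 fell with PA in siNtc, 3 and 2 in siErk3, and 4 and 2 in siMk5, the falls being close to the share of all genes. Rnf145, a sterol-regulated ubiquitin ligase of the endoplasmic reticulum, fell from 91.6, 98.2 and 101 CPM in siNtc BSA to 44.3, 41.0 and 41.7 CPM in siNtc PA, with log2 changes of -1.20, -1.30 and -1.29 in siNtc, siErk3 and siMk5. Erlin1, a cholesterol-binding protein of the same membrane, rose by 1.16, 1.104 and 1.15, and Paqr3, a Golgi protein that binds the SREBP escort, by 1.58, 1.61 and 1.51 (edgeR FDR of all 9 values at most 1.15e-12).

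Sterol uptake, transport and oxysterol genes made up the longest list. Of 22 such genes 21 were tested, and 10 rose and 3 fell in siNtc, 9 and 3 in siErk3, and 8 and 2 in siMk5. Ch25h, which makes a hydroxylated cholesterol that curbs SREBP processing, stood at 2.88, 3.21 and 3.64 CPM in siNtc BSA and at 32.5, 38.8 and 40.6 CPM in siNtc PA, rising by 3.50 ± 0.12 (SE), 3.86 ± 0.11 and 3.18 ± 0.11 on the log2 scale. Lrp8, a lipoprotein and reelin receptor, stood at 12.8, 13.1 and 16.6 CPM and 94.5, 101 and 101 CPM in the same groups and rose by 2.79, 2.698 and 2.66. Stard5, a sterol carrier of the same domain family as Stard4, rose by 1.75, 1.76 and 1.64 (edgeR FDR of all 9 values at most 4.72e-15). All 3 rose further than Npc1 in siNtc.

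Of 4 other SREBP2 targets, 2 rose and none fell in siNtc and in siErk3, and 2 rose and 1 fell in siMk5. Tmem97, a membrane protein that binds NPC1, stood at 25.4, 26.7 and 26.3 CPM in siNtc BSA and 58.1, 63.4 and 63.8 CPM in siNtc PA and rose by 1.24, 1.117 and 1.119, and Rdh11, a retinol dehydrogenase, rose by 0.52, 0.45 and 0.52 (edgeR FDR at most 4.80e-08). Mmab, a cobalamin enzyme known for sharing a divergent promoter with Mvk, had -0.29, -0.37 and -0.41, of which the siMk5 value passed. That call was lost at -0.28 without siMk5 PA library 1 and at -0.33 with the 18S share as a covariate, under which its siErk3 value passed at -0.45. Its siNtc value passed at -0.40 without siNtc PA library 1 and its siErk3 value at -0.40 to -0.47 without siErk3 BSA library 2, siErk3 PA library 2 or siErk3 PA library 3.

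Of 14 isoprenoid-using enzymes, 3 rose in siNtc and 2 under each silencing, near the share of all genes that rose, and none fell. Rabggtb, a subunit of the enzyme that prenylates Rab proteins, rose by 1.46, 1.58 and 1.59, and Nus1, a subunit of the dolichol-making transferase, by 0.90, 0.90 and 0.89 (edgeR FDR at most 5.82e-15). Rce1, a protease of prenylated proteins, rose in siNtc by 0.41 and had 0.21 and 0.28 in siErk3 and siMk5, the siNtc value falling to between 0.32 and 0.37, inside 1.3-fold, without siNtc BSA library 1, siNtc PA library 2 or siNtc PA library 3.

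Few fatty acid synthesis targets of SREBP1 passed the fold threshold. Of 13 genes, 1 rose and 1 fell in siNtc, 2 fell in siErk3 and 1 fell in siMk5, with medians of -0.01, -0.25 and -0.15. By edgeR's FDR alone 5 were higher and 3 lower in siNtc (23.9% and 21.2% of all genes), 3 and 8 in siErk3 (24.1% and 23%), and 4 and 5 in siMk5 (23.4% and 20.9%). In siErk3 10 of the 13 were below 0 (50.5% of all genes). Fads1, a desaturase, rose in siNtc by 0.46, with 0.26 in siErk3 and 0.34 in siMk5. Elovl6, an elongase, fell in siErk3 with a change of -0.43 (-0.37 and not called without siErk3 PA library 1), with -0.15 and -0.16 in siNtc and siMk5. Acacb, a carboxylase at 0.764 to 2.54 CPM, fell with changes of -0.56, -0.74 and -0.95 in siNtc, siErk3 and siMk5, but its siNtc call (edgeR FDR 0.0475) was lost in DESeq2, in the fit of only the groups compared and without siNtc BSA library 2, siNtc BSA library 3 or siNtc PA library 3, at -0.40 to -0.57. With the 18S share as a covariate its siMk5 value was -0.72 and did not pass. None of the genes of these 5 lists passed the threshold in a silencing comparison or an interaction in edgeR. By the FDR alone 2 did, both higher in siErk3 than in siNtc in BSA, namely Tmem97 at 0.23 ± 0.056 (edgeR FDR 0.0362) and Fasn, the fatty acid synthase, named here after its value was seen, at 0.21 ± 0.053 (FDR 0.0485). The 13 fatty acid genes leaned like the members under siErk3, and in the same directions under siMk5. For siErk3 in BSA 11 of them were above 0 (54.9% of all genes), 9 had an unadjusted p below 0.05 (10.6%), 10 were separated upward (11.5%), and the median was 0.13. In the siErk3 interaction 12 were below 0 (55.9% of all genes), 9 had an unadjusted p below 0.05 (6.1%), and the median was -0.20. For siMk5 in BSA 13 of 13 were above 0 (53.9% of all genes), 2 had an unadjusted p below 0.05 (6.89%), and the median was 0.08. In the siMk5 interaction 12 were below 0 (53.9% of all genes), 3 had an unadjusted p below 0.05 (7.43%), and the median was -0.10.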

How the data were processed

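Poly(A)-selected, strand-specific RNA-seq counts were used for all 18 libraries. Per the file headers, the authors counted primary alignments per gene with featureCounts 2.0.0, reverse-stranded, with a mapping quality of at least 3, against Ensembl release 105 of GRCm39. The submitters' processing notes name build mm10 and the tools STAR, Salmon, SAMtools, Trim Galore and DESeq2. The deposited values are raw counts, and read pairs overlapping several genes stayed unassigned.

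Counts were tested with edgeR 4.0.16 by the quasi-likelihood F test, with TMM scaling, 1 coefficient per group and all libraries in 1 fit. Genes with at least 10 counts over all libraries were kept, 21772 of 55414. A gene was called at a Benjamini-Hochberg FDR below 0.05 over all genes tested and a fold change above 1.3. CPM used TMM-scaled totals and RPKM the exonic length of the count table. Samples were grouped by their labels. Intervals cover 95%. None of the 18 library pairs within a group was a duplicate, with a chi-square per gene of at least 2.93. Pairs across groups were not checked. In counts simulated for PA against BSA in siNtc over 21772 genes, the changed genes were drawn from well-counted genes only. Of these, 94% of 100 genes changed by 0.5 (log2) and 100% of 100 genes changed by 1 were recovered. Among the unchanged genes 3 were called. Recovery in genes with few counts, such as Nr1h3, was not measured. DESeq2, its size factors, edgeR's expression filter, no filter, a replicate block, the FDR alone, only the groups compared, the 18S share as a covariate and leaving out each library were tried as alternatives.

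The members and the lists were chosen with earlier results of these data known. Values per library are given for called members, up to 5 per role by smallest FDR, and for up to 3 genes of each further list by smallest FDR. Outside this rule they are also given for Idi1 and Nr1h3, which were not called. Promoter windows come from RefSeq on GRCm38.p6, and gene positions from the count table on GRCm39, so they are not interchangeable.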

Additional observations from a re-analysis of the deposited data

How the results depend on the processing

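Recomputing 146 values of named genes under the alternatives gave 2068 values, of which 1981 kept their direction and their side of the threshold, 24 lost a call, 63 gained one (48 of them with the FDR alone) and 0 reversed. With the FDR alone, without the 1.3-fold minimum, the members called with PA were 23 higher in siNtc, 19 higher and 8 lower in siErk3, and 23 higher in siMk5, while 1 was higher in siErk3 against siNtc in BSA (Lss), 1 lower in siMk5 against siNtc in PA (Soat1) and 3 lower in siErk3 against siMk5 in PA (Acat2, Idi1 and Cyp51). Leaving out 1 library at a time gave 13 to 14 higher and 3 to 4 lower members in siNtc, 7 to 11 and 4 to 5 in siErk3, and 13 to 14 higher and 4 lower in siMk5, and the siErk3 interaction had 0 to 1 lower members, the 1 being Idi1 without siErk3 PA library 3. DESeq2's size factors, edgeR's expression filter and no filter changed no call.

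Replicate numbers showed no steady pairing of the libraries. Over 27 pairs of same-numbered libraries the correlation of deviations from the group means ran from -0.61 to 0.52 across 10553 genes. In 0 of the comparisons was every pair above 0.1. Some were far from 0, with 0.52, 0.05 and 0.43 for siErk3 against siMk5 in PA and -0.61, 0.0036 and -0.59 for siErk3 against siNtc in PA. With 3 libraries per group these values cannot show whether groups shared a batch. In a fit blocked on replicate number, members called with PA were again 13 higher and 3 lower in siNtc, 8 and 5 in siErk3, and 13 and 4 in siMk5, and no call of a named gene changed. Genes with few counts limit the precision, since 95% intervals of Nr1h3, at 30 to 69 counts per library, were the widest of the members.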
